A study of Mus musculus with 21 samples.

Results

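A shared core of genes is described here in 3 separate culture systems of cells labelled as mouse CD8 T cells. Its genes differed in the same direction between repeated (chronic) and acute stimulation through the T cell receptor (TCR) in all 3. Members were found among 12572 genes, of 13202 in the deposited table, that reached an RPKM of 1 (reads scaled to gene length and library depth) in at least 3 of the 18 libraries of these systems. A gene belonged to the core when its chronic against acute change was called in each system by limma (adjusted p under 0.05, log2(RPKM + 1)) with the same sign. The core held 2047 genes (16.3%), of which 680 were higher and 1367 lower in chronic libraries. Every group had 3 libraries. All cells received TCR stimulation for 48 h and interleukin-2 throughout, and were harvested on day 8. Acute cells got no further TCR stimulus, whereas for chronic cells it was renewed every 48 h. Repeated and recent stimulation therefore cannot be told apart in these libraries. The polyclonal system used C57BL/6 cells and plate-bound anti-CD3, with anti-CD28 in the opening stimulation. The vehicle system used C57BL/6 cells on the same protocol, with vehicle as the control for 10 mM N-acetylcysteine (NAC, a thiol antioxidant). The OT-I system used OT-I TCR transgenic cells, first activated with the ovalbumin peptide SIINFEKL. These were then co-cultured, in the acute group too, with B16-F10 melanoma cells treated beforehand with IFN-g, and the peptide was added only in the chronic group. A further group of 3 chronic libraries with NAC entered the fit for its spread and its own values.

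TCR signals reach the nucleus through the calcium-regulated factor NFAT and through AP-1 and NF-kB, which switch on cytokine and chemokine genes, growth factor receptors and, soon after, inhibitors that limit the same signal. When antigen persists, CD8 T cells keep inhibitory receptors such as PD-1 (Pdcd1) and LAG-3 at their surface and lose the stem-like state that the transcription factor TCF-1 (Tcf7) maintains, a course known as exhaustion. Genes of lymph node homing and quiescence, such as Klf2 and S1pr1, are shut off by TCR signals and return when these cease.

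The libraries did not all match the markers of CD8 T cells. Cd8a, which defines the lineage, stood at 8.3–8.63 RPKM in polyclonal chronic libraries and at 85.2–146 in every other group. Cd4 stood at 303–317 RPKM in the polyclonal chronic libraries and at 64.1–69.7 in the polyclonal acute ones. The 10 B cell and plasma cell markers measured were all higher in polyclonal and 8 in OT-I chronic libraries. Their summed level was 695–818 RPKM in polyclonal chronic libraries against 4.65–20.7 in acute ones, and 405–416 against 21.4–28.2 in OT-I co-cultures. In the vehicle system the sum was 5.06–6.56 in acute and 4.98–5.86 in chronic libraries. There, 1 marker was called higher (Mzb1) and 1 lower. The sum of 12 melanocyte markers was 7988–8279 RPKM in OT-I acute and 4681–4807 in OT-I chronic libraries. It was 34.1–80.8 in polyclonal acute and 50.5–72.0 in polyclonal chronic libraries. Vehicle libraries had 10.4–11.2 (acute) and 1.54–2.22 (chronic), and NAC libraries 7.51–8.78. Where the melanocyte transcripts of the polyclonal libraries came from was not tested. The NK markers, 5 in number, summed to 377–391 RPKM in vehicle chronic libraries against 63.9–72.0 in acute ones, with Fcer1g at 285–299. Their sum was 96.9–112 against 33.7–42.2 in OT-I co-cultures and 45.7–54.7 against 89.6–102 in polyclonal cells, and Tyrobp was in the higher core. Myeloid markers (8 measured) summed to at most 59.7 RPKM. The part of other cells in the changes below was not tested, and in these bulk samples fewer cells of a type and less RNA per cell cannot be told apart. For this reason each gene is given system by system, and calls without the polyclonal system are counted beside the core. Depth ran from 5347355 to 25218890 reads per library. Apart stood polyclonal acute library 2, polyclonal chronic library 2 and OT-I acute library 3, with 8, 18 and 1 genes under 0.1 RPKM against 47 to 1436 in the other libraries. Without these 3, left out after the data were seen, the core held 853 higher and 1565 lower genes. The labels do not say whether the 3 libraries of a group came from separate cultures or animals, and p-values therefore reflect nothing beyond the scatter of these libraries, which may be technical.

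The core was a minority of each system's changes. Chronic stimulation was called higher for 28.7% and lower for 35.7% of all genes in polyclonal cells, 22.5% and 36.3% in OT-I co-cultures, and 24.5% and 34.5% with vehicle. In the mean of the 3 effects, 3514 genes (28%) were higher and 5300 (42.2%) lower. Only 19.4% and 25.8% of these calls were in the core, and 984 of the higher and 869 of the lower calls had a call of opposite sign in at least 1 system. The core took 5.41% of all genes upward and 10.9% downward, whereas 3143 genes (25%) were called in opposite directions in different systems. Under libraries rescaled to a common median the core split into 821 higher and 1069 lower genes, and by limma-voom on recovered reads into 1004 and 948. The same alternatives gave 3983 and 4665, and 4439 and 3875, calls for the mean effect. Voom moved the median change of all genes in polyclonal cells from -0.08 to 0.03, a shift of 0.11. In 623 of the 680 and 1250 of the 1367 core genes the acute and chronic libraries did not overlap in any system. Of all genes tested, 6.07% were higher and 12% lower without overlap in all 3 systems, whether called or not.

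Sharing a direction did not mean sharing a size. The F test of equal effects was called for 73.9% of all genes, and for 565 of the 680 higher (83.1%) and 947 of the 1367 lower core genes (69.3%). The median change of the higher core genes was 0.84 in polyclonal cells, 0.53 in OT-I co-cultures and 0.68 with vehicle, on the log2(RPKM + 1) scale used for all changes here. For the lower core genes it was -0.65, -0.45 and -0.52, beside medians of -0.08, -0.11 and -0.03 for all genes. The largest of the 3 changes lay in OT-I co-cultures for 96 higher and 264 lower core genes, against 347 and 664 in polyclonal cells. A core change of at least 2-fold on this scale in each system was reached by 78 higher (0.62% of all genes) and 46 lower genes (0.366%). With a pseudocount of 0.1 these counts were 119 and 104. Voom gave 143 and 79. Just inside the 2-fold limit lay Csrnp1 (smallest change 1.002) and Nsg2 (1.002 downward), and just outside lay Rel (0.983) and Cnga1 (0.999 downward).

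Each system was then read on genes chosen by their calls in the other 2. The changes behind that choice used none of its libraries. The estimate of each gene's spread came from all 21 libraries, however, so the choice and the reading were not fully separate. Without the 2-fold condition, the genes that pass are each time the same 680 and 1367 of the core. Those shares thus restate the core against the number of genes chosen. Of 957 genes called higher in both OT-I and vehicle systems, 680 (71.1%) were higher in polyclonal cells, where 28.7% of all genes were. Of 1847 called lower in those systems, 1367 (74%) were lower in polyclonal cells. For OT-I co-cultures the shares were 40% of 1700 higher and 54.8% of 2494 lower genes, and for the vehicle system 48.1% of 1415 and 58.9% of 2321. Among genes that changed at least 2-fold in the other 2 systems the shares were greater in every case, from 54.5% (187 of 343 higher genes in OT-I co-cultures) to 83.8% (62 of 74 lower genes in polyclonal cells). The OT-I co-cultures thus gave the lowest share in both directions. Across all genes, Pearson's r of the changes was 0.34 between polyclonal and OT-I, 0.48 between polyclonal and vehicle and 0.27 between OT-I and vehicle systems. Genes are not independent replicates and the 3 systems share no library, but each change is a difference on the same genes and lengths.

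**Figure D1:**
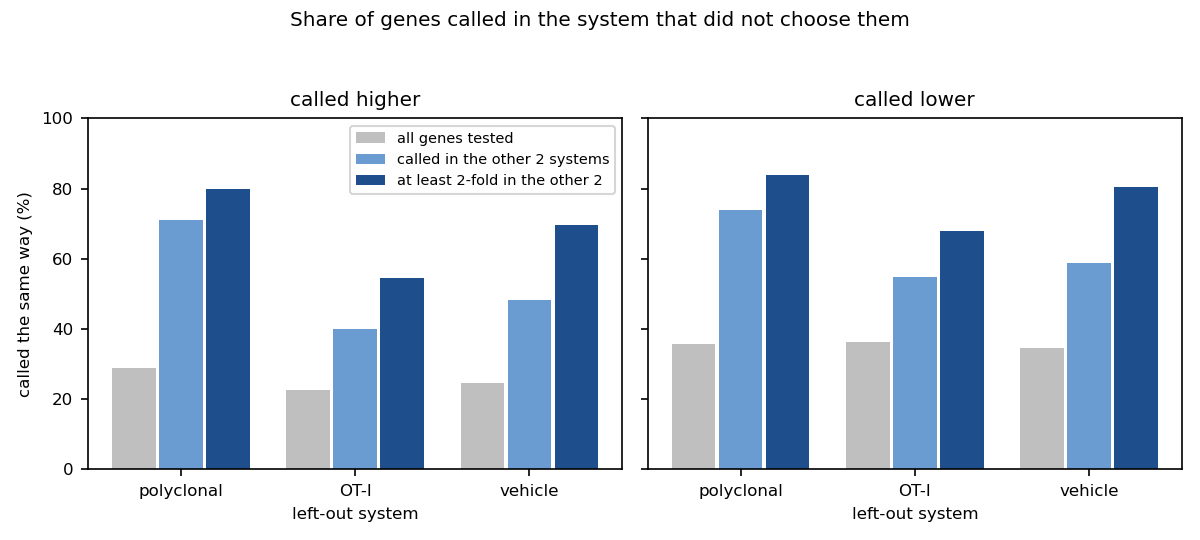
Bars give the percentage of genes called higher (left) or lower (right) in chronic libraries of the system named on the horizontal axis, for all genes tested, for genes called in the other 2 systems and for genes that also changed at least 2-fold there. Genes chosen in the other systems were called more often than all genes in each of the 6 cases, with the lowest shares in OT-I co-cultures (40% higher, 54.8% lower).

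Core genes were ranked by the smallest of their 3 changes. Members of the cytokine and chemokine list, which also holds Spp1 and Penk, took 7 of the 10 highest ranks among those that rose. Of 36 tested members, 31 rose and 3 fell in the mean effect, and 13 rose and 2 (Ltb and Il16) fell in all 3 systems, where 5.41% and 10.9% of all genes did. The median mean change of the list was 1.99, beside -0.07 for all genes. The T cell chemokine CCL3 (macrophage inflammatory protein) ranked highest. In polyclonal cells Ccl3 was at 5.04, 8.29 and 4.43 RPKM in acute and at 1653, 1503 and 1789 in chronic libraries. The OT-I acute libraries held 2.67, 3.37 and 3.86 RPKM and the chronic ones 95.2, 92.6 and 97.7. The vehicle acute libraries gave 2.11, 1.64 and 1.99 RPKM and the chronic ones 963, 942 and 988. Acute and chronic libraries stood far apart in all 3 systems, and the OT-I chronic libraries were the lowest of the chronic ones. The changes were 7.93, 4.49 and 8.38 in the polyclonal, OT-I and vehicle systems, with a mean of 6.93 (SE 0.0775, limma adjusted p = 1.25e-23), and they differed between systems (F test adjusted p = 4.61e-13). Ccl4, a neighbouring chemokine gene that acts on a shared receptor, ranked below Ifng and Il13, with 5.08, 3.75 and 6.23.

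Interferon-γ, the main effector cytokine of CD8 T cells, ranked directly below Ccl3. Ifng stood at 6.71, 6.95 and 8.48 RPKM in the polyclonal acute libraries and at 119, 108 and 128 in the chronic ones. Among OT-I libraries the acute ones gave 7.33, 7.04 and 6.11 RPKM and the chronic ones 619, 637 and 641. In the vehicle system the levels were 5.2, 4.67 and 4.13 RPKM (acute) and 432, 439 and 421 (chronic). Here the polyclonal chronic libraries were the lowest of the chronic ones, and no acute library exceeded 8.48. The changes were 3.83, 6.34 and 6.25, with a mean of 5.48 (SE 0.0455, limma adjusted p = 1.23e-25). The OT-I and vehicle changes differed from each other by 0.09 (limma adjusted p = 0.519), whereas the polyclonal change was smaller than the OT-I one by 2.51 (limma adjusted p = 1.86e-13). Tnf, encoding tumour necrosis factor, was not in the core, with changes of 1.07, 0.75 and -0.31.

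Several secreted proteins ranked high in the core. Il13, a type 2 cytokine, went from 3.04–4.65 to 1e+03–1222 RPKM in polyclonal cells, from 0.303–2.09 to 21.7–24.8 in OT-I co-cultures and from 2.93–5.07 to 192–217 with vehicle. Il3, a growth factor for myeloid progenitors, went from 0.0919–1.1 to 50.1–59 RPKM in polyclonal cells and from 0–0.898 to 8.39–9.07 in OT-I co-cultures. It was listed at 0 in the vehicle acute libraries and at 31.6–32.3 in the chronic ones. Secreted proteins with less specific roles rose too: Spp1 (osteopontin) by 4.31, 3.57 and 4.02, Penk (the enkephalin precursor) by 6.92, 3.51 and 9.30, and Inhba (the activin A subunit) by 6.04, 2.22 and 5.67. Il1r2, the decoy receptor for interleukin-1, rose by 5.06, 3.01 and 5.53. Il10 and Csf2 were also in the 2-fold core, with changes of 6.47, 1.69 and 2.67 for the former and 3.61, 1.45 and 2.53 for the latter.

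**Figure D2:**
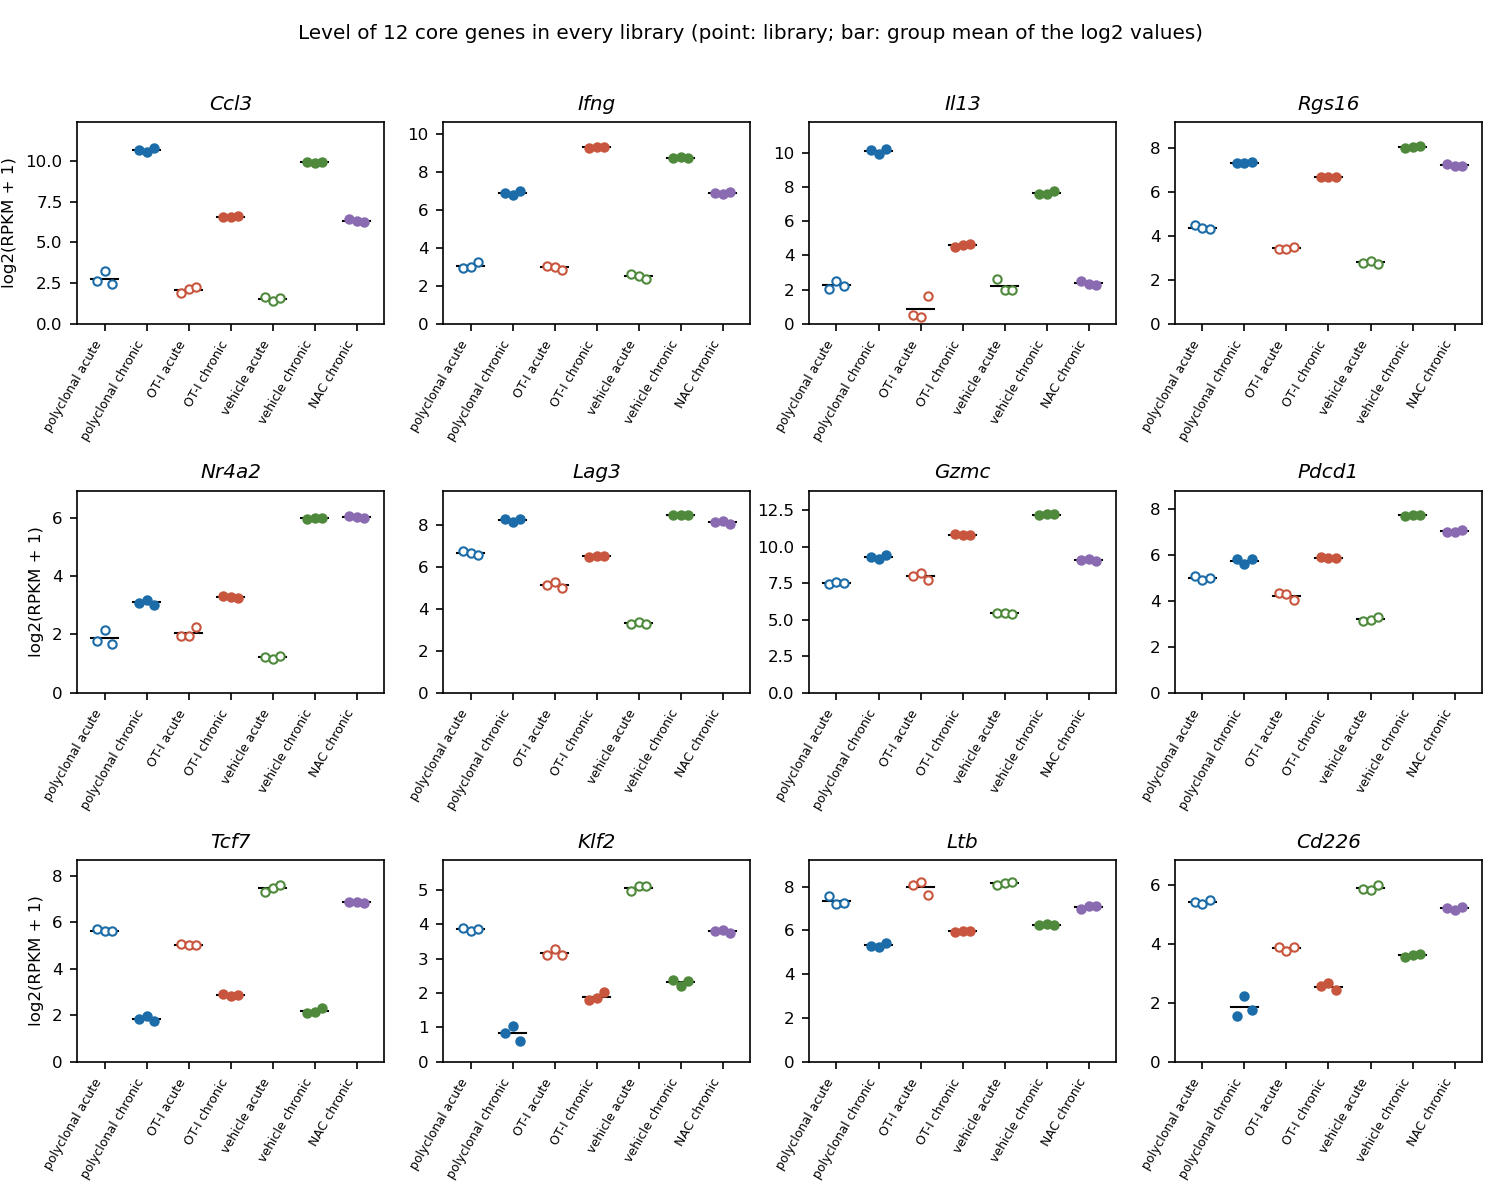
Each panel plots the level of 1 core gene, as log2(RPKM + 1), in every library of 7 groups (open points acute, filled points chronic, blue polyclonal, red OT-I, green vehicle, purple NAC, bars for group means). In the 8 higher genes all chronic libraries lay above the acute ones of their system, and in Tcf7, Klf2, Ltb and Cd226 all lay below. Except for Pdcd1, this absence of overlap was a condition for naming the genes. The gap varied between systems, as for Pdcd1, with changes of 0.74, 1.64 and 4.53.

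Promoters were examined because these genes moved together. For 9724 of the 12572 genes a RefSeq promoter (GRCm38.p6, 250 bases before to 50 after the first-listed start) was matched by symbol. Shown are the 250 bases upstream of the start for genes among the 10 highest-ranked higher or lower core genes with a match, all those that hold a searched motif there, namely Ccl3, Il13, Il1r2 and Serpinb9b (higher) and Mgst2, Pygl and Cyp2s1 (lower), with Ifng added as a leading gene that holds none of the letters searched. The motifs were NFAT (GGAAAA), AP-1 (TGANTCA), NR4A (AAGGTCA), EGR (GCGTGGG) and NF-kB (GGGANTTCC), on both strands, and capitals mark every match. No match overlapped another motif in these windows. The sequences are 5′ to 3′ on the gene's strand: Ccl3 (chr11:83649379-83649628, minus strand), Il13 (chr11:53634703-53634952, minus strand), Il1r2 (chr1:40085843-40086092, plus strand), Serpinb9b (chr13:33027164-33027413, plus strand), Ifng (chr10:118440796-118441045, plus strand), Mgst2 (chr3:51660929-51661178, plus strand), Pygl (chr12:70227684-70227933, minus strand) and Cyp2s1 (chr7:25816526-25816775, minus strand).
Ccl3: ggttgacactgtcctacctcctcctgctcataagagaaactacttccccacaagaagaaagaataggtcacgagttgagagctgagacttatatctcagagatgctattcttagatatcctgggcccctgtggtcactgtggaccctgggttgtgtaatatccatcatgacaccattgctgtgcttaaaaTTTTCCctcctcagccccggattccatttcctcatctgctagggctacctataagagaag
Il13: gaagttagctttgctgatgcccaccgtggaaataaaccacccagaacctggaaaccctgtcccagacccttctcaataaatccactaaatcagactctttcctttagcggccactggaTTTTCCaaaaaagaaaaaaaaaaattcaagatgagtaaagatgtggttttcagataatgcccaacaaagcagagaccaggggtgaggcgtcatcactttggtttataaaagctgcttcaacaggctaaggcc
Il1r2: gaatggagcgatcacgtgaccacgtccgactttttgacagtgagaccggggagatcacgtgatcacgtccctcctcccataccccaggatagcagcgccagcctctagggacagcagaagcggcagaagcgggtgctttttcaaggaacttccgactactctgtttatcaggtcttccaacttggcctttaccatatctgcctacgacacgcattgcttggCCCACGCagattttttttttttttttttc
Serpinb9b: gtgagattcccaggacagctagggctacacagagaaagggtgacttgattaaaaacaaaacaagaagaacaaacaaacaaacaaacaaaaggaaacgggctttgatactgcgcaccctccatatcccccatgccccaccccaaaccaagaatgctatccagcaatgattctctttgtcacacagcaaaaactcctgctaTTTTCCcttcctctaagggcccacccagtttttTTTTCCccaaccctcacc
Ifng: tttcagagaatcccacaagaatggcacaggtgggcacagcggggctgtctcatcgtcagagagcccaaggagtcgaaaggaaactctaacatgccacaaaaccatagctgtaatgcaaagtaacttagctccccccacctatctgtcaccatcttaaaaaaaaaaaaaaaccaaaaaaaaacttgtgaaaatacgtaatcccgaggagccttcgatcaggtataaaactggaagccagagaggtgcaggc
Mgst2: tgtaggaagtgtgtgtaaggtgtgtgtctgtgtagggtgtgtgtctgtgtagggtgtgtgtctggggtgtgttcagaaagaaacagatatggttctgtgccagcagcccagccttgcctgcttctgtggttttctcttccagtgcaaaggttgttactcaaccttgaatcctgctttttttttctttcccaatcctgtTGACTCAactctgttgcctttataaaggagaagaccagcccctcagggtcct
Pygl: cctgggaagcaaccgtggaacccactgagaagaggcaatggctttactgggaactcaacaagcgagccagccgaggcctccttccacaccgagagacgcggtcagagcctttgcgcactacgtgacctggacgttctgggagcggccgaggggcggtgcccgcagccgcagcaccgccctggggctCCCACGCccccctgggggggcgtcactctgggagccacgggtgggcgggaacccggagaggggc
Cyp2s1: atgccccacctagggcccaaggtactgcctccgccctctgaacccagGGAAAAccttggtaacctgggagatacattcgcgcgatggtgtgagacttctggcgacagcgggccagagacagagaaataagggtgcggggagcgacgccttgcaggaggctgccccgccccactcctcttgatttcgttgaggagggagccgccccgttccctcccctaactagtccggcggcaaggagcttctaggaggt
Among the higher genes, the NFAT letters appear once in Ccl3 and Il13 and at 2 places in Serpinb9b, and the EGR letters in Il1r2. Among the lower genes, the NFAT letters appear in Cyp2s1, the EGR letters in Pygl and the AP-1 letters in Mgst2. Over the whole window, NFAT letters were held by 16% of 520 higher and 18.5% of 1047 lower core promoters, beside 21.1% of all 9724. AP-1 letters were held by 5.96% and 3.72%, beside 5.09%. The NF-kB shares were 4.04% and 2.01% beside 2.34%, the EGR shares 10.8% and 8.12% beside 8.43%, and the NR4A shares 2.69% and 2.77% beside 3.12%. In the 2-fold core, from which the printed sequences come, the shares for 52 higher and 29 lower promoters were 23.1% and 13.8% for NFAT, 9.62% and 10.3% for AP-1, 9.62% and 13.8% for EGR, 3.85% and 6.9% for NR4A, and 1.92% and 0% for NF-kB. The NFAT share of higher promoters thus lay below that of all promoters in the whole core and above it in the 2-fold core. These are descriptions of letters in short windows, without a test.

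Transcription factors induced by TCR signals rose as a group in the mean effect, and 16 of them in every system. Like the other lists, this one was chosen with earlier results of these data known. All 30 tested members of this list were higher in the mean effect, 16 were in the higher core and none in the lower, and 6 had opposite calls in different systems. Among all genes, 28% were higher in the mean effect, 5.41% were in the higher core and 25% had opposite calls. The 16 included the orphan nuclear receptors Nr4a1 and Nr4a2, Egr1, Egr2 and Egr3, the NF-kB subunits Rel and Nfkb2, the AP-1 members Fos, Fosl1, Fosl2 and Junb, and Irf4 and Myc. In polyclonal cells Nr4a2 was at 2.45, 3.46 and 2.2 RPKM in acute and at 7.49, 8.15 and 7.1 in chronic libraries. In the OT-I co-cultures it stood at 2.88, 2.86 and 3.73 RPKM in acute and 9.04, 8.84 and 8.44 in chronic libraries. With vehicle it stood at 1.31, 1.22 and 1.41 RPKM in acute and 61.4, 62.4 and 63.4 in chronic libraries. The vehicle change stood out in this gene. The 3 changes were 1.23, 1.24 and 4.78 (F test adjusted p = 4.04e-15). Groups did not overlap within any system, which was a condition for naming the gene. Its paralogue Nr4a1 showed 1.05, 0.42 and 4.26. The family's remaining member, Nr4a3, was not in the core: it fell by 0.38 in polyclonal and 1.19 in OT-I cells and rose by 3.96 with vehicle. Irf4, which supports effector differentiation under strong TCR signals, rose by 2.49, 0.82 and 0.88, and Egr2 by 2.90, 0.93 and 4.76.

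Most tested inhibitors that feed back on the TCR rose in the mean effect. Of 34 tested members of the list, 23 rose and 9 fell in the mean effect, with 10 in the higher and 2 in the lower core. Among all genes, 28% rose and 42.2% fell in the mean effect, and 5.41% and 10.9% were in the higher and lower core. Rgs16, a brake on G-protein signalling, had the largest shared change of the list. Rgs16 stood at 21.1, 19.1 and 18.7 RPKM in the polyclonal acute libraries and at 155, 158 and 161 in the chronic ones. The OT-I acute libraries held 9.54, 9.51 and 10.2 RPKM and the chronic ones 99.6, 101 and 101. The vehicle acute libraries gave 5.78, 6.29 and 5.6 RPKM and the chronic ones 252, 259 and 266. The chronic libraries were about as far from the acute ones in polyclonal and OT-I cells and further with vehicle. The changes were 2.95, 3.24 and 5.24 (mean 3.81, SE 0.0276, limma adjusted p = 1.26e-26). Its relatives Rgs1 and Rgs2 rose by 3.57, 1.50 and 3.38 and by 2.87, 1.36 and 4.61. The phosphatases Dusp2 and Dusp5, the cytokine signal inhibitor Cish, the NF-kB inhibitor Nfkbia and the phosphatase Ptpn6 were core members too. Dgka, which removes diacylglycerol and so dampens TCR signals, fell in all 3 systems, with changes of -0.77, -0.80 and -0.70 (F test adjusted p = 0.344). Ubash3a also fell, by 0.82, 0.23 and 0.13, but voom, or leaving out vehicle acute library 1 or vehicle chronic library 1 or 3, ended its call in the core.

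Inhibitory receptors and their ligands gave 8 higher and 2 lower core members of 21 tested, with 16 higher and 5 lower in the mean effect. The shares of all genes were 5.41% and 10.9% in the core and 28% and 42.2% in the mean effect. The 2 lower members were thus near the share of all genes. Pdcd1, encoding PD-1, was in the core. In polyclonal cells Pdcd1 was at 33.1, 28.9 and 30.9 RPKM in acute and at 55.3, 47.3 and 55.3 in chronic libraries. Among OT-I libraries the acute ones gave 19.3, 18.8 and 15.2 RPKM and the chronic ones 58.8, 56.6 and 56.5. In the vehicle system the levels were 7.66, 8 and 8.88 RPKM (acute) and 207, 214 and 213 (chronic). Chronic libraries were above acute ones in each system, most widely with vehicle. The changes were 0.74, 1.64 and 4.53, with a mean of 2.31 (SE 0.0437, limma adjusted p = 6.08e-20).

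Lag3, whose product binds MHC class II, went from 95.4–106 to 284–316 RPKM in polyclonal cells, from 30.4–38.3 to 88.7–90.4 in OT-I co-cultures and from 8.72–9.34 to 349.6–358 with vehicle. Its changes were 1.58, 1.37 and 5.15. Havcr2, encoding TIM-3, changed by 0.29, 2.01 and 2.96, and Tigit by 1.90, 0.59 and 3.30. Cd200, the ligand of an inhibitory receptor on myeloid cells, had the highest rank of the list with 5.21, 1.94 and 3.22. Cd274, encoding PD-L1, rose by 1.81, 1.10 and 1.36. It stood at 54.2–60.8 RPKM in OT-I acute libraries, which also hold melanoma RNA. Polyclonal acute libraries had 20.4–21.7 and vehicle acute ones 9.43–10.0. The part of melanoma cells in its OT-I change was not tested. The other higher core members were Klrc1 and Pdcd1lg2, and the lower ones were Cd101 and the ectoenzyme gene Nt5e. Ctla4 was not in the core, since it fell by 1.03 in OT-I co-cultures and rose by 1.64 and 1.89 in the other systems. Among costimulatory receptors and ligands, 15 of 25 rose and 7 fell in the mean effect, and 5 rose and 2 fell in every system. The 2 falls did not exceed the share of all genes in the lower core (10.9%), beside 5.41% in the higher. Tnfrsf8 (CD30), Tnfrsf4 (OX40) and Tnfrsf9 (4-1BB) rose by 4.14, 1.49 and 1.74, by 3.42, 0.71 and 3.11 and by 1.33, 0.63 and 2.83. Cd226, an activating receptor that shares ligands with TIGIT, fell by 3.57, 1.30 and 2.28.

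Cytotoxic genes made up a further block, with 12 higher and 3 lower core members of 27 tested and 18 higher and 9 lower in the mean effect. The 3 lower members were near the share of all genes in the lower core (10.9%), whereas 5.41% of all genes were in the higher core. The granzymes C to G, serine proteases of the cytotoxic granule that lie in 1 gene cluster, were all in the higher core, together with Gzmb and Prf1. Granzymes C to G are near-identical copies, so reads could have been split between them and their separate values are uncertain. Gzmc went from 176–189 to 581–677 RPKM in polyclonal cells, from 213–289 to 1770.2–1848 in OT-I co-cultures and from 41.6–43.6 to 4515–4756 with vehicle, and Gzmf showed 2.52, 3.42 and 8.70. Gzmb, the main granzyme of effector cells, went from 2861–2901 to 3772–4484 RPKM in polyclonal cells, from 2670.3–3208 to 7132–7366 in OT-I co-cultures and from 4667–5716 to 13485–13902 with vehicle. Its changes were 0.52, 1.29 and 1.39. Prf1, encoding the pore-forming perforin, rose by only 0.25 in polyclonal cells (limma adjusted p = 0.007) and by 4.89 and 4.32 in the other systems. Serpinb9b, a granzyme inhibitor, rose by 2.31, 4.88 and 8.03. The lower members were Gzmk (-3.58, -0.63 and -4.15), Lamp1 and Unc13d. Lamp1 and Unc13d left the core under both other scalings, and Gzmk under voom and without OT-I acute library 3 or OT-I chronic library 1 or 2. Unc13d was also lost without vehicle acute library 2 or vehicle chronic library 1 or 2. Gzma was not in the core: it fell in polyclonal cells by 1.15 and rose by 2.19 and 2.36 elsewhere.

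**Figure D3:**
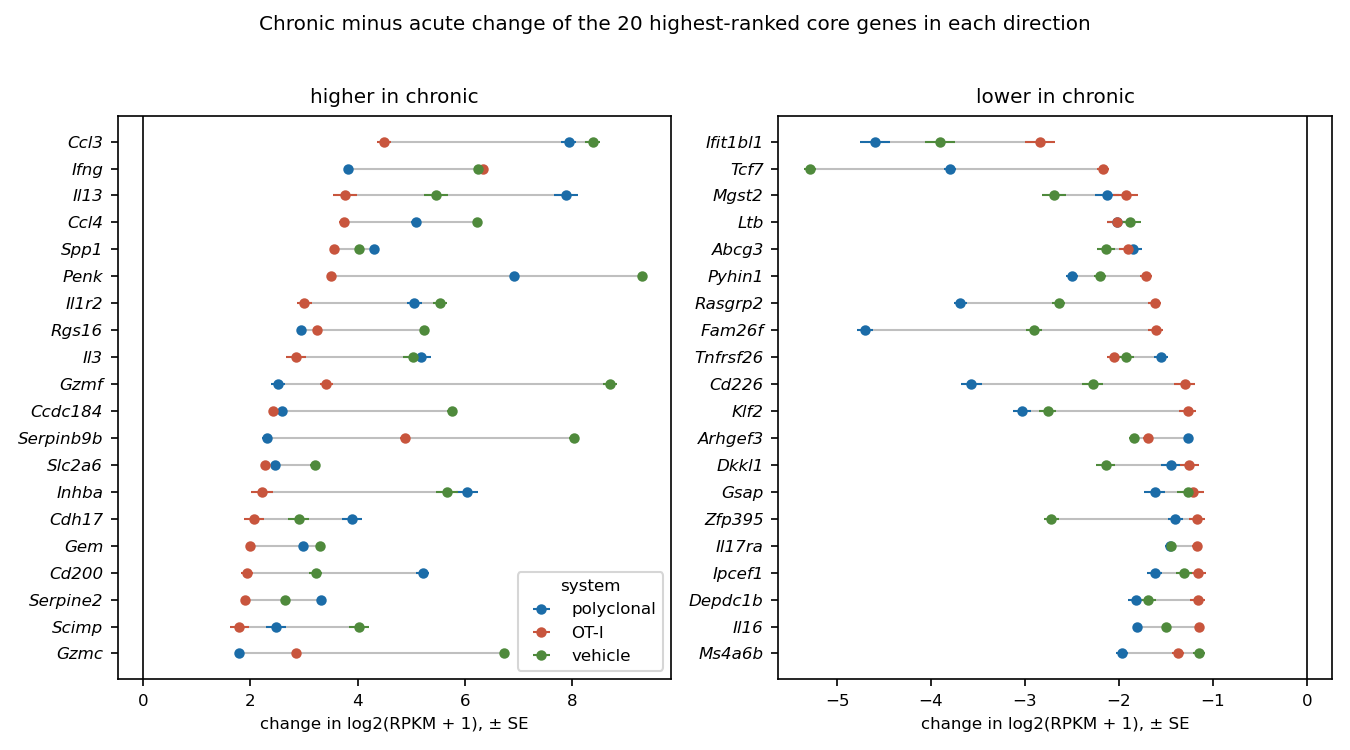
Points give the chronic minus acute change in log2(RPKM + 1) with its standard error, in polyclonal (blue), OT-I (red) and vehicle (green) systems. Shown are the 20 highest-ranked higher (left) and lower (right) core genes among those that passed the rule for naming genes. Genes that failed it, such as Cd24a (smallest change 2.36) and Pygl (1.58 downward), are not plotted. Grey lines join the 3 changes of a gene. The smallest change of the left panel is 1.80 and that of the right panel -1.15, with wide gaps for Gzmf (2.52, 3.42 and 8.70) and narrow ones for Ltb (-2.02, -2.02 and -1.88).

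Parts of the secretory and lipid synthesis pathways rose in all 3 systems. Of 24 tested endoplasmic reticulum stress genes, 20 rose and 3 fell in the mean effect, with 9 in the higher and 1 (Dnajc3) in the lower core. Across all genes, 5.41% were in the higher core and 10.9% in the lower. The 9 were chaperones and folding enzymes (Calr, Pdia4, Pdia6, P4hb, Hyou1, Manf, Creld2), Edem1 and the transcription factor Xbp1. Creld2 went from 26.8–30.9 to 61.7–75.2 RPKM in polyclonal cells, from 28.4–34.7 to 71.7–73.6 in OT-I co-cultures and from 46.4–49.6 to 73.4–76.9 with vehicle, with changes of 1.27, 1.16 and 0.65. Xbp1, which B cell and plasma cell differentiation also uses, rose by 1.82, 0.70 and 0.40. The part of B cells and plasma cells in its change was not tested. Dnajc3 left the core under both other scalings. Of 32 tested sterol and fatty acid synthesis genes, 30 rose and 2 fell in the mean effect, and 13 rose and none fell in all systems. They included Fdps, Fdft1, Lss and Cyp51 of cholesterol synthesis, the sterol sensor partner Insig1 and the desaturase genes Scd1, Scd2 and Fads2. Scd1 changed by 1.30, 1.25 and 1.94 and Msmo1 by 0.73, 1.24 and 0.98. Fasn, encoding fatty acid synthase, rose in polyclonal (0.70) and OT-I cells (1.36) and fell with vehicle by 0.55.

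Of 33 tested BCL2 family genes and p53 targets, 20 rose and 6 fell in the mean effect, with 5 higher and 4 lower in the core. Of all genes, 5.41% were in the higher and 10.9% in the lower core. Bcl2a1b and Bcl2a1d, near-identical genes of an anti-apoptotic protein whose reads cannot be separated with certainty, rose by 1.02, 1.27 and 2.50 and by 1.78, 1.96 and 3.98. Bcl2 itself, the survival factor of resting T cells, fell by 1.29, 0.92 and 1.67. Gadd45b rose by 1.49, 1.45 and 2.41. Of 20 tested heat shock genes 15 rose and 1 fell in the mean effect, but only Bag3 (1.07, 0.55 and 0.93) and Hspa1b were in the core. With vehicle 5 heat shock genes were higher and 9 lower, and 9 had opposite calls. Slc2a6 (a sugar transporter of the GLUT family) rose by 2.46, 2.28 and 3.20 and Serpine2 (a secreted protease inhibitor) by 3.31, 1.91 and 2.65. Only 2 of the 78 genes of the higher 2-fold core had effects for which the F test was not called. Plod3, a collagen-modifying enzyme, went from 4.98–6.22 to 13.5–14.4 RPKM in polyclonal cells, from 20.4–22 to 46.5–49.4 in OT-I co-cultures and from 4.73–5.24 to 11–11.8 with vehicle, and Cst3, which encodes cystatin C, changed by 1.41, 1.37 and 1.21.

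Some higher core genes are also typical of B cells or antigen-presenting cells, and are singled out after their values were seen. Cd74, the MHC class II invariant chain, went from 1.93–3.54 to 567–699.9 RPKM in polyclonal cells, from 309–325 to 681–709.5 in OT-I co-cultures and from 1.35–1.72 to 3.95–4.91 with vehicle. Cd24a, a surface protein of immature T cells and B cells, went from 0.129–1.75 to 66.4–72 RPKM in polyclonal cells, from 0.479–0.923 to 10.9–11.3 in OT-I co-cultures and from 0.032–0.112 to 4.27–4.9 with vehicle. The B cell marker Mzb1 was in the core, but stood at 0.692, 1.01 and 1.24 RPKM in the vehicle chronic libraries. The vehicle levels of these 3 genes were thus below 5 RPKM.

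Genes of memory and quiescence were among the lower core. Of 30 tested members, 19 fell and 6 rose in the mean effect, 10 fell in all systems and none rose in all. Across all genes, 42.2% fell and 28% rose in the mean effect, and 10.9% fell in all systems. The median mean change of the list was -0.70. Tcf7, encoding TCF-1, ranked next to the top of the lower core. Tcf7 stood at 50.7, 47.5 and 48.1 RPKM in the polyclonal acute libraries and at 2.58, 2.88 and 2.32 in the chronic ones. In the OT-I co-cultures it stood at 32.1, 31.9 and 31.1 RPKM in acute and 6.45, 6.07 and 6.33 in chronic libraries. With vehicle it stood at 158, 176 and 192 RPKM in acute and 3.23, 3.37 and 3.9 in chronic libraries. Every chronic library lay below every acute library, including those of the other systems. The changes were -3.80, -2.17 and -5.29, with a mean of -3.75 (SE 0.0389, limma adjusted p = 3.78e-24; F test adjusted p = 1.21e-15). Lef1, its close relative, fell by 1.38, 1.28 and 1.03. Klf2 drives the gene of the exit receptor S1pr1.

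In polyclonal cells Klf2 was at 13.8, 12.9 and 13.6 RPKM in acute and at 0.766, 1.07 and 0.509 in chronic libraries. The OT-I acute libraries held 7.55, 8.77 and 7.6 RPKM and the chronic ones 2.44, 2.62 and 3.09. The vehicle acute libraries gave 30.2, 33.5 and 33.5 RPKM and the chronic ones 4.14, 3.61 and 4.08. The groups did not overlap in any system, which was a condition for naming the gene, and the polyclonal chronic libraries were the lowest. The changes were -3.03, -1.27 and -2.76. S1pr1, the receptor by which T cells leave lymphoid tissue, fell by 1.79, 0.80 and 3.33. Rasgrp2, which activates the integrin regulator RAP1, fell by 3.69, 1.62 and 2.64. The list's other core members included S1pr4, Foxo1, Pik3ip1 and Bcl2. Il7r and Ccr7, textbook markers of memory, were not in the core. Il7r changed by -0.09, 0.06 and 0.95 and was called only with vehicle (limma adjusted p = 3.68e-11), and Ccr7 changed by 1.30, 0.03 and -0.92.

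Of 17 tested transcription factors of exhaustion and effector cells, 5 rose (Prdm1, Zbtb32, Tbx21, Bcl6 and Ahr) and 2 fell (Tcf7 and Klf2) in all systems, with 10 higher and 6 lower in the mean effect. The higher core held 5.41% and the lower core 10.9% of all genes. Prdm1, encoding BLIMP-1, rose by 1.57, 0.69 and 1.22, and Tbx21, encoding T-bet, by 0.37, 0.39 and 1.10. Tox, a factor tied to exhaustion, stood below 2 RPKM in all 18 libraries, with changes of 0.17, -0.56 and -0.21 and a limma adjusted p of 0.308, 0.00216 and 0.21 in turn. Eomes fell by 3.79 in polyclonal cells, rose by 1.64 in OT-I co-cultures and fell by 0.11 with vehicle.

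For some lower genes a difference between the systems was not called. Ltb, encoding lymphotoxin β, a T cell signal to stromal cells, ranked highest among them. Ltb stood at 186, 148 and 150.5 RPKM in the polyclonal acute libraries and at 38, 36.5 and 42.1 in the chronic ones. Among OT-I libraries the acute ones gave 271, 299 and 194 RPKM and the chronic ones 60.5, 61.4 and 61.1. In the vehicle system the levels were 271, 286 and 293 RPKM (acute) and 75.5, 77.8 and 75.1 (chronic). Acute libraries lay between 148 and 299 RPKM and chronic ones between 36.5 and 77.8, without overlap. The changes were -2.02, -2.02 and -1.88, and a difference between systems was not called (F test adjusted p = 0.617). The largest gap between 2 systems was 0.14 (OT-I minus vehicle -0.14, limma adjusted p = 0.453). The F test was likewise not called for 6 more of the 46 genes of the lower 2-fold core: Abcg3 (-1.85, -1.90 and -2.14), Pygl (glycogen phosphorylase, -1.97, -2.07 and -1.58), Gsap, Arhgef39, Mturn and Ndc80. It was not called for 115 of the higher and 420 of the lower core genes in all, which does not show that their effects were equal.

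Most tested components that carry the TCR signal fell in the mean effect. Of 33 tested genes of the TCR complex and its proximal pathway, 23 fell and 4 rose in the mean effect, and 14 fell and 1 (Cd6) rose in all systems. Across all genes, 42.2% fell in the mean effect and 10.9% in all systems. The 14 were Cd247 (the CD3 zeta chain), Cd8b1, the kinase genes Fyn and Prkcq, the phospholipase gene Plcg1, the adaptors Grap2, Skap1, Trat1, Sit1 and Themis, the NFAT genes Nfatc2 and Nfatc3, and Ppp3ca and Ppp3cc of calcineurin. Grap2, which links LAT to SLP-76, went from 68.9–74.4 to 23.2–26.1 RPKM in polyclonal cells, from 50.3–53.8 to 29.1–32.8 in OT-I co-cultures and from 86.9–93.5 to 23.9–25.9 with vehicle, with changes of -1.49, -0.72 and -1.80. Sit1 fell by 1.14, 0.98 and 1.49. Cd8b1 went from 259–274 to 21.3–24 RPKM in polyclonal cells, where Cd8a fell as well, whereas Cd8a rose by 0.73 with vehicle. Cd6, a modulator of T cell adhesion, rose by 1.28, 0.20 and 0.93.

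Of 29 tested cytokine receptor genes 12 rose and 13 fell in the mean effect, beside 28% and 42.2% of all genes. The core held 4 of them as higher and 8 as lower, beside 5.41% and 10.9% of all genes. Il2ra, the high-affinity interleukin-2 receptor chain, rose by 2.61, 0.70 and 1.16, and Il21r by 1.59, 0.26 and 1.19. Both interleukin-18 receptor chains fell: Il18r1 by 4.23, 0.89 and 3.59 and Il18rap by 4.14, 0.60 and 1.42. The receptor chains for interferons (Ifngr1, Ifnar1, Ifnar2), TGF-β (Tgfbr1), activin (Acvr1b) and interleukin-17 (Il17ra, -1.46, -1.17 and -1.45) were lower in all systems. Of 34 tested chemokine and homing receptor genes 15 rose and 16 fell in the mean effect, again with falls at about the share of all genes, and with 4 higher and 8 lower in the core. Cxcr3, which guides effector cells to inflamed tissue, went from 48.7–53 to 7.96–8.42 RPKM in polyclonal cells, from 14–16.8 to 6.66–7.89 in OT-I co-cultures and from 103–115 to 1.44–2.34 with vehicle. Itgb7, an integrin chain of gut homing, fell by 0.69, 1.96 and 3.55. Ccr1, a receptor of CCL3, rose by 2.92, 0.73 and 3.19. Gpr65, an acid-sensing receptor, was a marginal member: its polyclonal change was 0.12 and 14 of the alternatives, 12 of them leaving out 1 library, ended its call in the core.

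**Figure D4:**
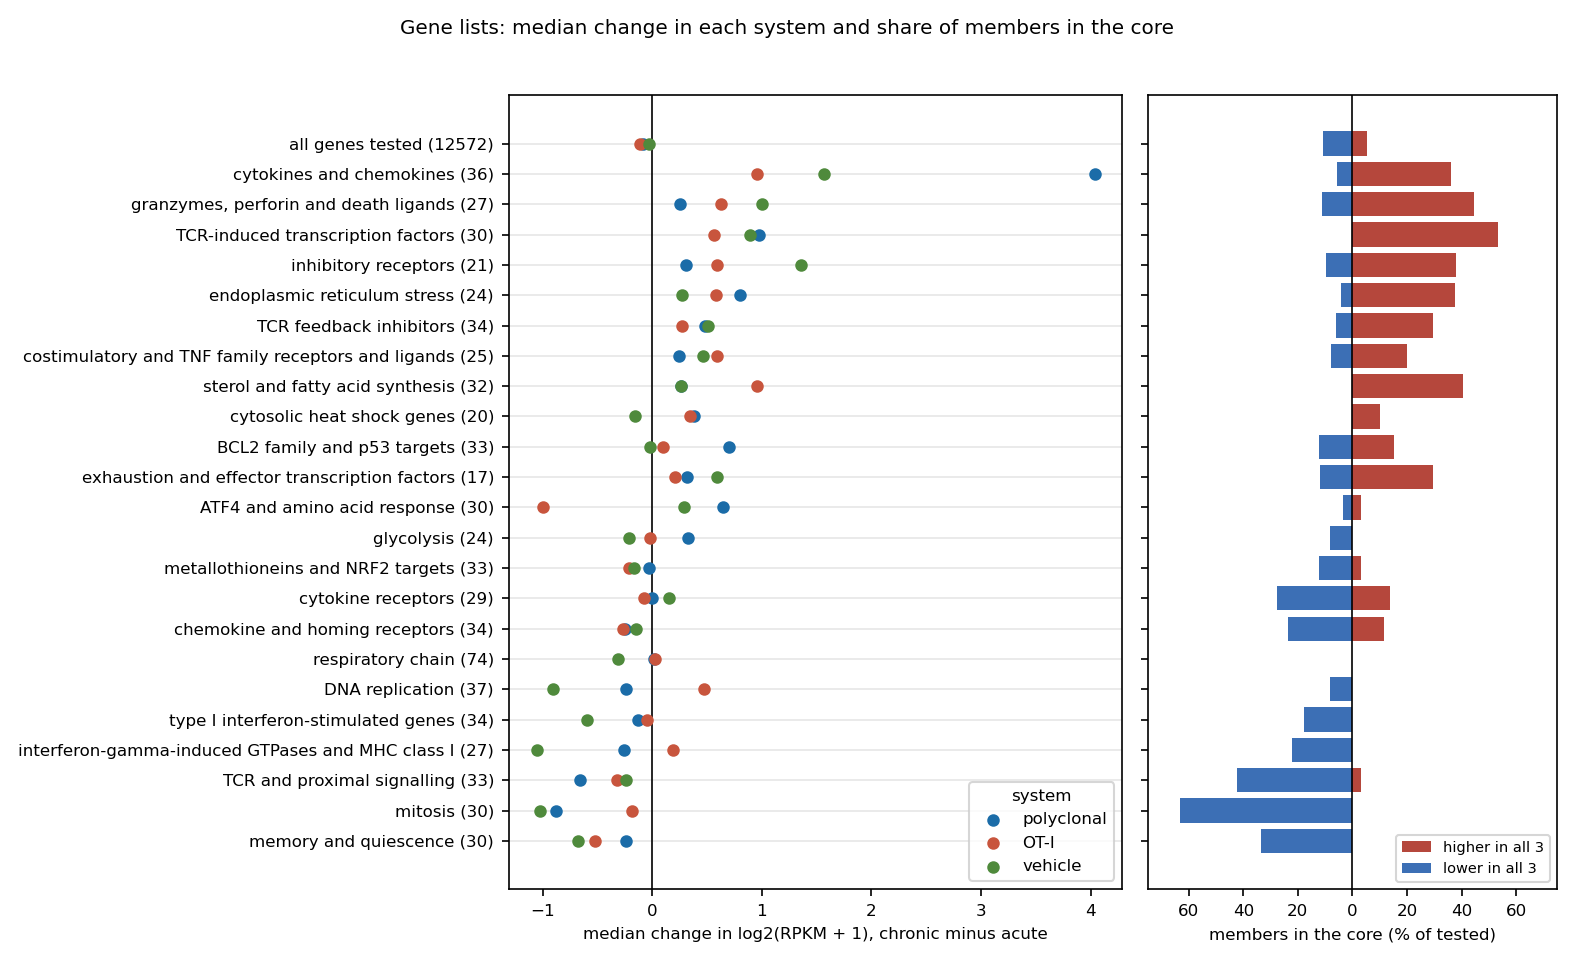
Left, the median chronic minus acute change in log2(RPKM + 1) of each gene list in polyclonal (blue), OT-I (red) and vehicle (green) systems, with the number of genes tested in brackets. Right, the percentage of each list's tested genes that were in the higher (red, to the right) or lower core (blue, to the left), beside 5.41% and 10.9% for all genes. TCR-induced transcription factors (16 of 30 higher) and mitosis genes (19 of 30 lower) have the longest bars. The lists were chosen with earlier results of these data known.

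Mitosis genes fell in the mean effect, and DNA replication genes moved in opposite directions in different systems. All 30 tested mitosis genes fell in the mean effect, and 19 fell and none rose in all 3 systems, where 10.9% of all genes fell. The count of 19 was 13 under both other scalings. All 30 were lower in polyclonal cells and 29 with vehicle, while in OT-I co-cultures 19 were lower and 3 higher. Nusap1, a spindle protein gene, went from 69.2–75.2 to 31.8–34.1 RPKM in polyclonal cells, from 43.1–47.2 to 27.3–28.3 in OT-I co-cultures and from 87.8–93.1 to 40.3–40.7 with vehicle, with changes of -1.12, -0.69 and -1.14. Ccnb2, a cyclin of mitosis, fell by 1.61, 0.52 and 1.49. Of 37 tested replication genes, 24 were lower in polyclonal cells and 37 with vehicle, but 31 were higher in OT-I co-cultures. Opposite calls were present in 32 of them, and only Mcm2, Cdt1 and Gins4 were in the lower core, with only Mcm2 left on rescaling and none under voom. Rrm2, encoding the ribonucleotide reductase subunit, showed -0.31, 0.99 and -1.10. In the OT-I system the libraries also hold melanoma cells, and the changes of T cells and tumour cells cannot be told apart.

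Most interferon-responsive genes tested fell in the mean effect, and few of them in all systems. Of all genes, 42.2% fell in the mean effect and 10.9% in all systems. Of 34 tested type I interferon-stimulated genes, 21 fell and 5 rose in the mean effect, with 6 in the lower core (Rtp4, Oasl2, Rsad2, Irf9, Ddx58 and Xaf1) and none in the higher. The count of 6 was 3 on rescaling and 3 under voom, and leaving out any 1 of the 6 OT-I libraries ended the core call of Oasl2. Oasl2, Rsad2 and Xaf1 are among the tumour-enriched genes described below, with OT-I acute levels of 109.7–112 RPKM for Oasl2 and 165–167 for Rsad2, against 12.6–18.2 and 10.9–12.7 in polyclonal acute libraries. Rsad2 lost its core call without OT-I acute library 2 or 3 or OT-I chronic library 1 or 3. Rtp4 fell by 2.10, 0.92 and 2.23. Ifit1bl1, a relative of the IFIT antiviral genes with near-identical copies and therefore uncertain, had the largest shared fall, from 38.2–41.9 to 0.273–1.36 RPKM in polyclonal cells, from 13.9–16.7 to 1.19–1.36 in OT-I co-cultures and from 14.2–21.1 to 0.192–0.25 with vehicle. Of 27 tested interferon-γ-induced GTPase and MHC class I genes, 21 fell and 5 rose in the mean effect and 6 fell in all systems, among them Gbp7 (-1.12, -0.43 and -1.59), Tap1 and Psmb8. With vehicle 26 of the 27 were lower, whereas in OT-I co-cultures, whose melanoma cells had been treated with IFN-g, 13 were higher and 7 lower. Gbp2 went from 75.5–77.6 to 110.3–116 RPKM in polyclonal cells, from 314–318 to 1060.5–1099 in OT-I co-cultures and from 77.3–83.1 to 15.8–16.4 with vehicle, in opposite directions.

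Metabolic lists left little in the core. None of 74 tested respiratory chain genes was in it. In the mean effect 33 were lower and 7 higher, with falls near the share of all genes (42.2% lower, 28% higher). The 33 and 7 became 20 and 9 on rescaling and 11 and 11 under voom. Most lower calls were in the vehicle system, where 51 of 74 were lower, against 10 in polyclonal and 13 in OT-I cells. Of 24 tested glycolysis genes 7 rose and 8 fell in the mean effect, and Pdk1 and Aldoa fell in all systems. These counts were near or below the shares of all genes (28%, 42.2% and 10.9%). Pdk1, the kinase that restrains pyruvate dehydrogenase, fell by 1.71, 1.06 and 1.73 and Aldoa by 0.43, 0.31 and 0.54, the latter not under the other scalings. Of 30 tested ATF4 and amino acid response genes, 26 were higher in polyclonal cells and 28 lower in OT-I co-cultures, and 25 had opposite calls. Only Atf3 (2.91, 0.73 and 2.36) rose and Slc38a2 fell in all 3. Of 33 tested metallothioneins and NRF2 targets, Mt3 rose and Gclc, Gclm, Prdx1 and Cat fell in all systems, with 12 higher and 15 lower in the mean effect. The 4 falls were near the share of all genes in the lower core (10.9%), and the 15 near the share lower in the mean effect (42.2%). On rescaling, and under voom, the count of 4 falls was 1, and Gclm was also lost without OT-I chronic library 1, and Prdx1 without polyclonal acute library 3 or chronic library 2. Gclc, the rate-limiting enzyme of glutathione synthesis, fell by 0.35, 0.27 and 0.41 (F test adjusted p = 0.347).

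The OT-I libraries hold melanoma RNA. Genes were called tumour-enriched when their OT-I acute mean was at least 1 RPKM and at least 4 times that of every polyclonal and vehicle group. There were 797, of which 383 fell and 92 rose in OT-I co-cultures, and 5 higher and 18 lower core genes were among them. Without them the core held 675 higher and 1349 lower genes. The definition requires low levels in the other systems, so these counts say little of tumour RNA in genes that both cell types express. Of the 2-fold core only Myl10 was tumour-enriched.

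NAC was given only to chronic cells, and its libraries are set beside the vehicle libraries that the core used, so its values for core genes are shown without a test. Tcf7 stood at 117, 117 and 113 RPKM with NAC, beside 3.23–3.9 in vehicle chronic and 158–192 in vehicle acute libraries. Il13 stood at 4.57, 4.02 and 3.88 RPKM with NAC, beside 192–217 and 2.93–5.07. These genes thus lay nearer the acute level with NAC, and Il13 overlapped it. Nr4a2, at 65, 64.8 and 62.3 RPKM with NAC, lay at its vehicle chronic level of 61.4–63.4, and Lag3 at 286, 288 and 268 beside 349.6–358 was little below it. Spp1 (871–879 RPKM with NAC, 910.5–966 in vehicle chronic libraries) stayed high as well.

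To follow the shared change, genes changed at least 2-fold in both polyclonal and OT-I systems were read in NAC chronic against vehicle chronic libraries. Vehicle and NAC libraries entered this choice only through the shared estimate of spread. Of all genes, 38.2% were higher and 22.7% lower with NAC, with a median of 0.08. Of the 148 chosen as higher, 84 were lower and 31 higher with NAC, with a median change of -0.43. Of the 87 chosen as lower, 72 were higher and 6 lower with NAC, with a median of 0.93. The 148 include 8 of the 10 B cell markers, whose sum was 11.9–12.9 RPKM with NAC and 4.98–5.86 in vehicle chronic libraries. Cd4 stood at 46.7–48.9 RPKM with NAC against 2.16–2.63 in vehicle chronic libraries. The part of other cells in the differences between NAC and vehicle libraries was not tested.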

How the data were processed

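RNA of 21 mouse CD8 T cell libraries (7 groups of 3) was sequenced after poly-A selection. Per the submitters' processing notes, bcl2fastq 2.17, HTSeq and edgeR were used with build mm9, and no source used here names the aligner or strand setting, so overlapping or antisense genes cannot be told apart. The authors deposited RPKM values per gene, with no counts. Whole reads (and whole gene lengths) were recovered from the values of 100% of genes within 0.001 reads, which gave 5347355 to 25218890 reads per library. Polyclonal libraries had 5347355 to 15147347 reads, OT-I libraries 13121180 to 25218890 and vehicle libraries 14696045 to 17539278.

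The deposited RPKM values were tested as log2(RPKM + 1) with limma 3.58.1 in R 4.3.3 (trend, two-sided, Benjamini-Hochberg adjusted p under 0.05), in 1 fit with a mean per group over all 21 libraries. A fold change on this scale understates the change of low genes. Genes had an RPKM of at least 1 in at least 3 of the 18 libraries of the 3 systems. The F test compared the 3 effects. The members, gene lists and marker lists were chosen with earlier results of these data known. Named are the 20 highest-ranked core genes in each direction (mean RPKM of at least 5 in the higher group of each system, no overlap of libraries, no predicted genes or small RNAs), up to 3 core members per list and direction, up to 2 members per list called in opposite directions, and a set of well-known genes. Genes named from the 2-fold core outside this rule, such as Il10, Csf2, Plod3, Cst3, Pygl, Cyp2s1, Cd74 and Cd24a, were chosen after their values were seen. No libraries within a group held identical values, and the 21 pairs within groups had Pearson's r of 0.985 to 0.999.

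Deviations of same-numbered polyclonal libraries correlated (r = 0.445, 0.627 and 0.166), which pairs them by the rule used here. Differently numbered ones also did, with 0.567 for acute library 1 with chronic library 3 and 0.132 for acute 3 with chronic 1. Pairing by number is therefore not shown. Same-numbered OT-I (0.054, -0.169 and -0.036) and vehicle libraries (0.005, 0.079 and 0.076) did not correlate. Alternatives were a pseudocount of 0.1, other filters, rescaling to a common median, limma-voom on the recovered reads (scaled by the trimmed mean of M values, coded for this purpose), 18 libraries only, a replicate block, leaving out each library, a stricter p of 0.01, leaving out tumour-enriched genes, and leaving out 3 libraries chosen after seeing the data. Simulated data had the real acute means, a fixed scatter for all genes and 200 genes changed equally in all 3 systems. There the core recovered 2% of genes changed 1.2-fold, 72% at 1.5-fold, 92% at 2-fold and 90% at 4-fold (50 genes each). None of the unchanged genes among 12339 tested was called. The real data held far more changed genes and uneven scatter, so these figures are not error rates of the core. The recovery of reads returned all simulated reads in 4 simulated sets. Results for a few genes are not reported here.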

Additional observations from a re-analysis of the deposited data

Results flagged for a closer look

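Of the 2047 core genes, 1512 had effects that differed between the 3 systems by the F test. Outside the core, genes with opposite calls in 2 systems drew attention, and the values below are the largest difference between 2 systems in log2 change. Transcription factors had differences of Batf3 5.26, Nr4a3 5.15, Eomes 5.43, Id3 5.18 and Irf8 3.98. Among signalling inhibitors and surface receptors the differences were Socs2 4.22, Spry2 3.82, Cd244 3.94, Klrg1 3.92, Slamf6 5.29, Ctla4 2.92 and Tnfsf8 3.94. For secreted and cytotoxic products they were Xcl1 7.01, Lif 5.23, Tnf 1.38, Gzma 3.51 and Serpina3f 3.23, and Xcl1, a chemokine that attracts dendritic cells, had the largest of all those named here. The T cell lineage genes gave Cd8a 4.16, Cd4 4.33 and Txk 3.38, and cytokine or chemokine receptors Il6ra 3.93, Ifngr2 2.82, Cxcr5 4.35, Ccr2 3.74 and Ccr7 2.22. Cell cycle genes gave smaller values, with Cdc20 1.46, Plk1 1.35, Rrm2 2.10 and Orc1 2.07. Metabolic and amino acid response genes gave Ndufa4 1.54, Atp5k 1.17, Eno2 2.40, Aldoc 1.93, Cth 4.86, Nupr1 4.21 and Fasn 1.92. Genes of protein folding, oxidative stress and heat shock gave Ern1 1.93, Herpud1 1.24, Hmox1 2.46, Osgin1 2.10, Hsp90aa1 1.77 and Hsph1 1.59. Interferon-induced genes gave Ifit2 4.17, Oas3 3.17, Iigp1 4.50 and Gbp2 4.03, and the p53 targets Gadd45a 2.53 and Phlda3 2.48. Each difference passed limma's test of the difference itself (adjusted p under 0.05). Genes chosen for opposite calls were almost bound to pass it, so this adds no separate support. For Cd4 and Cd8a, the levels in the polyclonal chronic libraries are given with the markers. The cause of these differences was not tested.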

How the results depend on the processing

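Leaving out 1 library at a time gave 619 to 732 higher and 1243 to 1465 lower core genes, 76 to 80 and 43 to 50 at 2-fold, 3401 to 3746 and 5092 to 5593 in the mean effect, 2873 to 3341 with opposite calls and 1368 to 1613 core genes whose effects differed. The replicate block, which pairs libraries within systems, gave 715 higher and 1476 lower core genes, 78 and 46 at 2-fold, 3661 and 5667 in the mean effect, 3416 with opposite calls and 1620 whose effects differed, so it moved no count by over 1.5 times. The 2-fold core moved from 78 and 46 to 119 and 104 with a pseudocount of 0.1, and to 143 and 79 with voom, neither of which adds 1 RPKM before taking logs. A filter of RPKM 5 gave 663 and 1284 core genes, no filter 673 and 1351, 18 libraries alone 649 and 1302, and an adjusted p under 0.01 513 and 1009. Without the 3 libraries with fewest genes under 0.1 RPKM, an alternative chosen after seeing the data, the core held 853 and 1565 genes. Of 4366 values of the mean change of 168 named genes, 4326 kept their direction and side of the threshold, 11 lost and 14 gained the call, and 15 changed sign, all in 3 genes near 0. Hmox1 (-0.03) became 0.02 on rescaling, 0.11 with voom, 0.01 without vehicle acute library 1 (-0.07 to 0.01 over all single libraries) and 0.01 without the 3 libraries. Eno2 (0.03) became -0.04 without polyclonal acute library 1, -0.00 without acute library 3 and -0.04 without chronic library 2. Atp5k (0.00) became -0.01 to -0.04 on leaving out 1 of 7 libraries and -0.04 without the 3 libraries. For these 3 genes the cause was not tested. Why these 3 libraries, polyclonal acute 2, polyclonal chronic 2 and OT-I acute 3, had so few low values (8, 18 and 1 genes under 0.1 RPKM, against 47 to 1436 in the others) was not tested.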
